A study of Mus musculus with 6 samples.

Results

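*Gcnt1*, which encodes the core 2 O-glycan branching enzyme, was described here beside 9 other glycosyltransferase genes that shape the sugars on T cell surface proteins: *C1galt1*, *St3gal1*, *St3gal6*, *St6gal1*, *St8sia4*, *Fut8*, *Mgat5*, *Mgat4a* and *B4galt1*. The 10 genes were chosen by symbol, for their roles in building these sugars, and with earlier results of these data known. Each symbol matched 1 gene identifier in the count table, and all 10 were among the 11877 genes tested, of 47643 in the table. *Gcnt1* differs from the other 9 in 1 respect: the study had singled it out among the genes higher under anti-PD1, partly on these same libraries. The study named it with *Cd5* and *Gpr65* as higher under anti-PD1 in mice and, among melanoma patients, only in responders to nivolumab. The change of *Gcnt1* under anti-PD1 here is therefore not independent evidence.

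The libraries came from Tg4 *Nr4a3*-Tocky Tiger mice. Tg4 is a transgenic T cell receptor that recognises a myelin basic protein (MBP) peptide, Tiger is an *Il10*-GFP reporter, and *Nr4a3*-Tocky makes a Timer protein after T cell receptor signalling that is first blue and matures to red. Every mouse, controls included, received 80 μg of [4Y] MBP peptide under the skin, and 24 h later 800 μg of either isotype control antibody (a pool of rat IgG1 and IgG2a), anti-PD1 or anti-Lag3, then 8 μg of peptide 30 min after the antibody. Spleens were taken 4 h later, and CD4+ T cells positive for both Timer colours, a gate meant for cells that responded to both peptide doses, were sorted for 3′ mRNA sequencing. There were 2 libraries in each of the 3 groups. Ages and the sex of each mouse were not given in the sources used here. The study's methods describe replicate mice stained separately, each with its own CD4 dye, and sorted side by side, but do not tie a mouse to each library, so the p-values measure the spread between these libraries. The T cells carry a transgenic receptor and every group had been given peptide, so there was no resting or unstimulated group to set these values against.

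Proteins at the T cell surface carry O-glycans, built outward from a sugar on serine or threonine, and branched N-glycans on asparagine. For O-glycans, *C1galt1* encodes the enzyme that makes the core 1 structure, and Gcnt1 and St3gal1 then compete for it: Gcnt1 adds the branch that makes core 2, whereas St3gal1 caps core 1 with sialic acid and closes it to branching. Core 2 O-glycans are known to rise on activated T cells, where they change the form of CD43 and, on PSGL-1, help to make ligands for selectins. On N-glycans, Mgat4a and Mgat5 add branches, Fut8 adds the core fucose, B4galt1 adds galactose that extends the branches, and St6gal1 and St3gal6 cap their ends with sialic acid. St8sia4 makes polysialic acid.

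Because the results turn on *Gcnt1*, the sequence before its start sites is shown first. *Gcnt1* lies on the minus strand of chr19:17326141-17372844 (GRCm38), and RefSeq gives it 3 windows of sequence upstream of a transcript start, of which 2 are printed, as 250 bases 5′ to 3′ from GRCm38.p6. The first, chr19:17372845-17373094, lies just upstream of the annotated gene. The second, chr19:17356668-17356917, lies inside the gene, in an intron of the longer transcript; the third overlaps an annotated exon and is not printed. Capitals mark TTTTCC, the reverse complement of GGAAAA, the letters of the core bound by NFAT, the factor that drives the *Nr4a3* reporter.
Gcnt1 window 1: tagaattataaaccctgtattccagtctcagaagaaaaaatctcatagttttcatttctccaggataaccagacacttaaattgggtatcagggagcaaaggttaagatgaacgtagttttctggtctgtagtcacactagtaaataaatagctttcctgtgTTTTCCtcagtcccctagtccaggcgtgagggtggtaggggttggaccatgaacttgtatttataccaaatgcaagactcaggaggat
Gcnt1 window 2: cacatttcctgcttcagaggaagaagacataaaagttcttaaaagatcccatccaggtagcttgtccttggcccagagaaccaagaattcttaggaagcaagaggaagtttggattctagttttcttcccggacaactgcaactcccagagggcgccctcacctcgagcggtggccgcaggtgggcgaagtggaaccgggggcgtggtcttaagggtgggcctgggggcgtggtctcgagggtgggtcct
The match lay 83 to 88 bases before the start in the first window, and the second window held none. GGAAAA on either strand was present in 20.4% of the 32851 RefSeq windows of this length, and in 7 of the 18 windows of the 9 genes that have one (*St3gal1* is without). The AP-1 letters TGANTCA were in 2 of the 18 windows and in 6.75% of all. CRE letters (TGACGTCA, 1.55% of all windows) and T-box letters (AGGTGTGA, 1.12%) matched in 0 of the 18. These are matches of letters, not binding sites, and the 3′ reads do not tell which start was used.

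Reads are given below as deposited, and levels as CPM, the reads of a gene as a share of its library's total after TMM, a trimmed mean that sets libraries to a common scale. Between-library spread is an SD over 2 libraries. A gene was called changed at an adjusted p under 0.05 by the quasi-likelihood test of edgeR, fitted on all 6 libraries and adjusted over all 11877 genes by the Benjamini-Hochberg method. Fold changes are fitted log2 values with their standard error (SE) and 95% interval. Totals ran from 2107715 to 2648920 reads, and 1 transcript, *Gm42418*, took 17.4% to 21.0% of them. A gene at 3 reads would stand at 1.11 to 1.44 CPM.

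*Gcnt1* was the 1 gene of the 10 that was called, and it was called higher in anti-PD1 than in isotype cells. It had 23 and 28 reads in the isotype libraries, 65 and 92 in the anti-PD1 libraries and 45 and 47 in the anti-Lag3 libraries. The isotype pair lay lowest, the anti-PD1 pair highest and the anti-Lag3 pair between them, and no 2 groups overlapped. As CPM the levels were 10.8 and 11.3, mean 11.1 ± 0.305 (SD, n = 2), in isotype cells, 31.1 and 37.6, mean 34.4 ± 4.58 (SD, n = 2), under anti-PD1, and 19.0 and 17.5, mean 18.2 ± 1.07 (SD, n = 2), under anti-Lag3.

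Against isotype, *Gcnt1* was 3.10-fold higher under anti-PD1, a log2 fold change of 1.63 (SE 0.31, interval 1.00 to 2.27, adjusted p = 0.0015 by edgeR with the Benjamini-Hochberg method), and stood 47th of the 11877 genes by p. The call depended on the second anti-PD1 library: without it the log2 fold change was 1.49 and the adjusted p 0.136 by edgeR, the 1 of 17 alternatives in which the gene was not called. Under anti-Lag3 the same gene was 1.64-fold the isotype level, a log2 difference of 0.72 (SE 0.33, interval 0.05 to 1.38), which gave an edgeR p of 0.0361 before adjustment and 0.800 after it and was not called. These comparisons share the isotype libraries. Set directly against each other, anti-PD1 stood above anti-Lag3 by 0.92 (SE 0.29, interval 0.33 to 1.51), with an edgeR p of 0.0031 before and 0.315 after adjustment, so a difference between the antibodies did not pass the test across all genes.

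**Figure D1:**
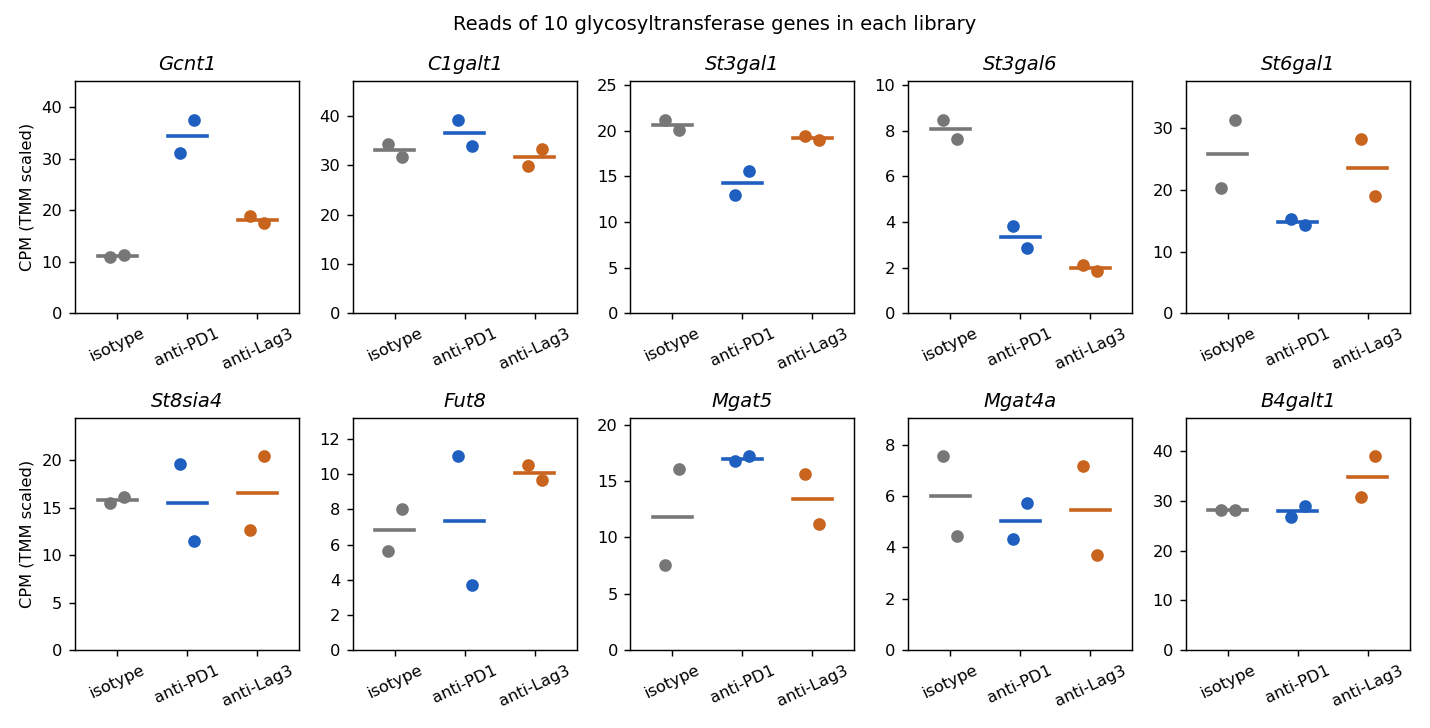
CPM (TMM scaled, vertical axis from 0, a scale of its own in each panel) of the 10 genes in each library; points are libraries, lines are group means of 2 libraries. For *Gcnt1* the anti-PD1 points at 31.1 and 37.6 CPM lie above the isotype points at 10.8 and 11.3 CPM, while the 6 points of *C1galt1* lie between 29.9 and 39.3 CPM.

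*C1galt1* (chr6:7844842-7875687), whose product makes the acceptor for Gcnt1, had nearly level counts of 73 and 79 reads in isotype, 82 and 83 in anti-PD1 and 71 and 90 in anti-Lag3 libraries. Its CPM spanned 29.9 to 39.3 over all 6, and the anti-PD1 and anti-Lag3 groups both overlapped the isotype group. The fitted log2 difference from isotype was 0.14 under anti-PD1 (SE 0.24, interval -0.35 to 0.64) and -0.06 under anti-Lag3 (interval -0.55 to 0.43). Its chaperone gene *C1galt1c1*, without which the enzyme does not fold, had 10 to 29 reads and was not called (log2 difference -0.47 under anti-PD1, SE 0.52).

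*St3gal1* (chr15:67102875-67176830), which encodes the enzyme that competes with Gcnt1, had 45 and 50 reads in isotype, 27 and 38 in anti-PD1 and 46 and 51 in anti-Lag3 libraries. Both anti-PD1 libraries, at 12.9 and 15.5 CPM, lay below both isotype libraries, at 21.2 and 20.1 CPM, and the anti-Lag3 libraries at 19.4 and 18.9 CPM lay just under the isotype pair. The anti-PD1 difference was -0.53 on the log2 scale (SE 0.33, interval -1.20 to 0.14, adjusted p = 0.748 by edgeR) and was not called; under anti-Lag3 it was -0.11 (interval -0.74 to 0.53).

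Within a library, the reads of the genes of the 2 competing enzymes can be compared free of library scaling. The enzymes themselves and the O-glycans were not measured here. The log2 CPM of *Gcnt1* minus that of *St3gal1* (2 reads added before the log) was -0.92 and -0.79 in isotype, 1.21 and 1.23 in anti-PD1 and -0.03 and -0.11 in anti-Lag3 libraries. *Gcnt1* gave fewer reads than *St3gal1* in both isotype libraries and more in both anti-PD1 libraries, and about as many in the anti-Lag3 libraries. The group difference was 2.08 for anti-PD1 against isotype and 0.78 for anti-Lag3 against isotype. An exact two-sided permutation test gave p = 0.33 for each, the smallest that 2 against 2 libraries allow, so these differences are descriptions.

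Against the mean of all the other 9 genes, *Gcnt1* stood at -0.34 and -0.41 in isotype, 1.16 and 1.65 in anti-PD1 and 0.42 and 0.41 in anti-Lag3 libraries, as log2 CPM differences. The group difference was 1.78 for anti-PD1 and 0.79 for anti-Lag3 (exact permutation p = 0.33 for each, again the smallest possible). That mean of the other 9 was itself 3.88 and 4.01 in isotype, 3.84 and 3.62 in anti-PD1 and 3.89 and 3.78 in anti-Lag3 libraries on the log2 CPM scale. The mean of the others differed by -0.22 between anti-PD1 and isotype, so most of the 1.78 lay in *Gcnt1* itself. Against *C1galt1* alone the values were -1.59 and -1.43, -0.33 and 0.15, and -0.64 and -0.91 in the same order, with group differences of 1.42 and 0.74.

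**Figure D2:**
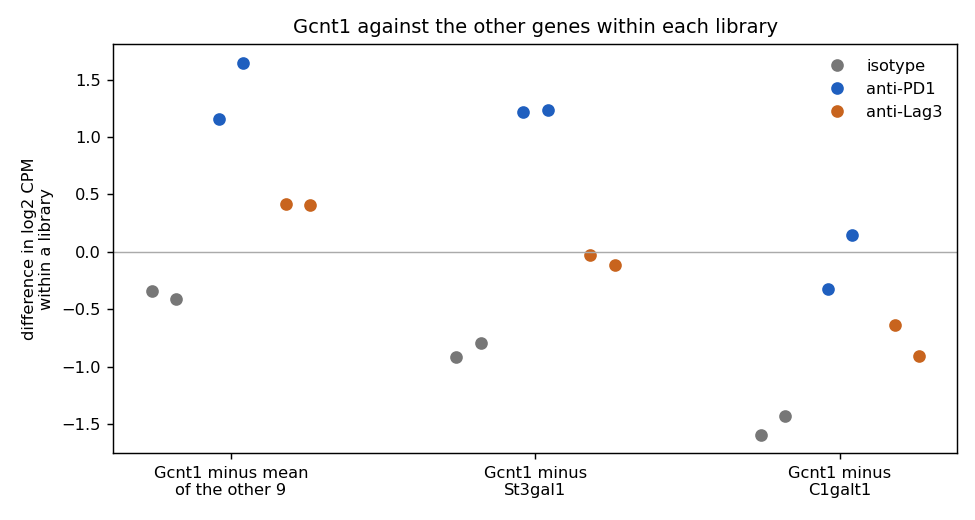
Difference in log2 CPM within each library (vertical axis) between *Gcnt1* and, from left to right, the mean of the other 9 genes, *St3gal1* and *C1galt1*; each point is 1 library. In each of the 3 sets the isotype pair lies lowest, the anti-Lag3 pair in the middle and the anti-PD1 pair highest, as for *Gcnt1* minus *St3gal1* with -0.92 and -0.79, -0.03 and -0.11, and 1.21 and 1.23.

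Of the sialyltransferase genes, 3 besides *St3gal1* were among the 10, and none was called in any comparison. Of all tested genes, only 0.901% were called in anti-PD1 against isotype, 0.0421% in anti-Lag3 against isotype and 0.303% in anti-PD1 against anti-Lag3. *St6gal1* (chr16:23224740-23360350), whose enzyme caps N-glycans and which is known to be high in B cells, had 43 and 78 reads in isotype, 32 and 35 in anti-PD1 and 67 and 51 in anti-Lag3 libraries. The anti-PD1 libraries, at 15.3 and 14.3 CPM, lay below the isotype libraries at 20.3 and 31.4 CPM, which differed widely between themselves, and the anti-Lag3 libraries at 28.3 and 18.9 CPM overlapped the isotype range. The anti-PD1 difference was -0.81 on the log2 scale (SE 0.32, interval -1.46 to -0.16), with an edgeR p of 0.0161 before and 0.422 after adjustment. Without the second isotype library it was -0.45 (adjusted p = 0.868 by edgeR), and without the first -1.08 (adjusted p = 0.232). The anti-Lag3 difference was -0.15 (SE 0.30).

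*St3gal6* (chr16:58468125-58524243), whose product adds sialic acid to lactosamine ends, was the lowest of the 10 in reads: 18 and 19 in isotype, 8 and 7 in anti-PD1 and 5 and 5 in anti-Lag3 libraries. Both antibody groups lay below the isotype group, the anti-Lag3 libraries lowest at 2.11 and 1.86 CPM. Its log2 difference from isotype was -1.26 under anti-PD1 (SE 0.66, interval -2.60 to 0.07, adjusted p = 0.660 by edgeR) and -2.00 under anti-Lag3 (SE 0.70, interval -3.41 to -0.59), the latter with an edgeR p of 0.0066 before and 0.667 after adjustment. Neither was called. The end of *St3gal6* overlaps an exon of *Dcbld2* on the other strand; *Dcbld2* had at most 2 reads in any library.

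Marker levels of other spleen cells differed between the groups. The 7 T cell markers (*Cd3d*, *Cd3e*, *Cd3g*, *Cd4*, *Cd2*, *Trac*, *Cd5*) were all tested and summed to between 1295 and 1460 CPM in the 6 libraries. They did not move together under anti-PD1: *Cd5* was called higher (log2 fold change 1.01, adjusted p = 0.0015 by edgeR), while *Cd2* had a log2 difference of 0.35 and *Cd3d*, *Cd3e* and *Cd4* of -0.34, -0.38 and -0.32, each at an unadjusted edgeR p under 0.05 and not called. The 10 B cell markers summed to 119 and 133 CPM in isotype, 65.2 and 51.1 in anti-PD1 and 83.1 and 123 in anti-Lag3 libraries, and without *Ighm* to 36.3 and 37.4, 11.5 and 7.77, and 13.1 and 14.9. Of the 7 B cell markers tested, 6 had a log2 difference below 0 in anti-PD1 against isotype and *Igkc* and *Ighm* were called lower; the defining marker *Cd79a* was at 0 in all libraries. The 9 macrophage markers summed to 64.6 and 53.1 CPM in isotype, 17.7 and 33.1 in anti-PD1 and 25.3 and 28.2 in anti-Lag3 libraries, with 7 of 8 tested below 0 in anti-PD1 against isotype, *C1qa* called lower and *Vsig4* at 0 in all. *St3gal6* was below isotype in both antibody groups, as were the macrophage sum and the B cell sum without *Ighm*. That sum leaves out a gene of the B cell list as set. *Ighm* had means of 89.1, 48.5 and 88.9 CPM in isotype, anti-PD1 and anti-Lag3 libraries. With it, the anti-Lag3 B cell sums overlapped the isotype sums. *St6gal1* was below isotype in the anti-PD1 libraries. The anti-Lag3 libraries, which overlapped isotype for *St6gal1*, had 28.3 and 18.9 CPM of it. Their B cell sums were 83.1 and 123 CPM, and without *Ighm* 13.1 and 14.9 CPM. The part of other cells in the values of *St3gal6* and *St6gal1* was not tested. *Gcnt1* was higher in the libraries of both antibody groups, in which the macrophage sum and the B cell sum without *Ighm* were lower than in either isotype library. The part of other cells in the values of *Gcnt1*, called higher under anti-PD1 only, was not tested either. In sorted bulk samples, fewer cells of a type and less RNA per cell cannot be told apart.

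**Figure D3:**
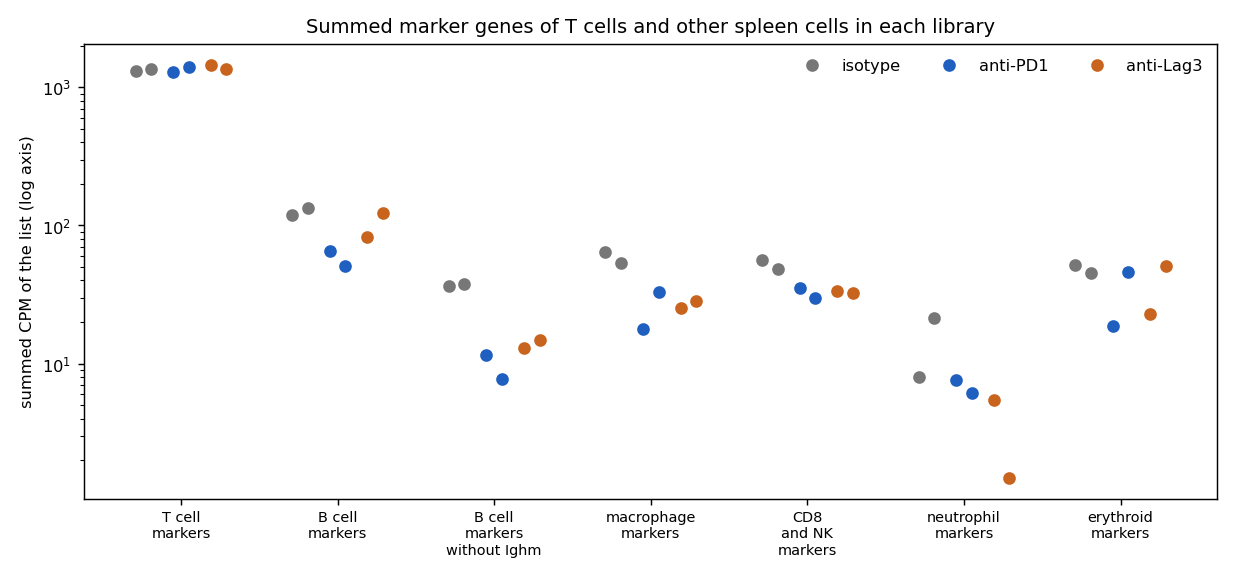
Summed CPM (vertical log axis) of marker lists for T cells and for other cells of the spleen; each point is 1 library. T cell markers lie between 1295 and 1460 CPM in all 6 libraries, while B cell markers without *Ighm* lie at 36.3 and 37.4 CPM in isotype and between 7.77 and 14.9 CPM in the antibody groups. With *Ighm*, the anti-Lag3 points at 83.1 and 123 CPM overlap the isotype points at 119 and 133 CPM.

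Of the other lists, CD8 and NK cell markers came to 56.1 and 48.3 CPM in isotype, 35.0 and 29.8 in anti-PD1 and 33.7 and 32.7 in anti-Lag3 libraries, and erythroid markers to between 18.7 and 51.8 CPM without separating the groups. Neutrophil markers came to 1.49 to 21.3 CPM (*Ly6g* at 0), plasma cell markers to 0 to 6.60 CPM and dendritic cell markers to 0 to 1.88 CPM, with *Zbtb46*, *Clec9a* and *Siglech* at 0 in all libraries.

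*St8sia4* (chr1:95587682-95667571), the polysialic acid gene, had 33 and 40 reads in isotype, 41 and 28 in anti-PD1 and 30 and 55 in anti-Lag3 libraries. The 3 groups overlapped, and the log2 difference from isotype was -0.04 under anti-PD1 (interval -0.77 to 0.69) and 0.07 under anti-Lag3 (interval -0.65 to 0.79).

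Of the 4 genes that build N-glycans, none was called in any comparison. Few of all tested genes were: 0.901% in anti-PD1 and 0.0421% in anti-Lag3 against isotype, and 0.303% between the antibodies. *Mgat5* (chr1:127205015-127488336), whose branch is the one bound best by galectins, had 16 and 40 reads in isotype, 35 and 42 in anti-PD1 and 37 and 30 in anti-Lag3 libraries. The first isotype library, at 7.54 CPM, stood well below the second at 16.1 CPM, which itself was close to the anti-PD1 libraries at 16.8 and 17.2 CPM. The log2 difference under anti-PD1 was 0.50 (SE 0.38, interval -0.27 to 1.27) and was 0.08 without the first isotype library; under anti-Lag3 it was 0.15 (interval -0.63 to 0.93).

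*B4galt1* (chr4:40804602-40854005), for galactose, had 60 and 70 reads in isotype, 56 and 71 in anti-PD1 and 73 and 105 in anti-Lag3 libraries. Isotype and anti-PD1 overlapped, with a log2 difference of -0.01 (SE 0.26, interval -0.54 to 0.52), and both anti-Lag3 libraries, at 30.8 and 39.0 CPM, lay above the isotype pair at 28.3 and 28.2 CPM, by 0.31 (interval -0.20 to 0.82).

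*Fut8* (chr12:77238125-77476338), for core fucose, had 12 and 20 reads in isotype, 23 and 9 in anti-PD1 and 25 and 26 in anti-Lag3 libraries. The anti-PD1 libraries lay on either side of the isotype pair, and the anti-Lag3 libraries above it, at 10.5 and 9.66 CPM against 5.65 and 8.05 CPM. The log2 differences were 0.06 (interval -0.99 to 1.12) and 0.54 (interval -0.46 to 1.55). *Mgat4a* (chr1:37439340-37541016) was as thinly covered, with 16 and 11, 9 and 14, and 17 and 10 reads in the same order. Its groups overlapped throughout, and its intervals, from -1.46 to 1.00 under anti-PD1 and from -1.34 to 1.07 under anti-Lag3, span more than 1 log2 unit on either side of 0 except for the upper bound of 1.00, so a change of nearly 1 log2 unit was not detectable at this depth.

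Over the 10 genes, 1 was called higher and 0 lower in anti-PD1 against isotype, where 0.901% of all tested genes were called (0.631% higher and 0.269% lower). By edgeR p before adjustment, 1 was higher and 1 lower under 0.05, against 4.3% and 3.81% of all tested genes, 8.12% in either direction. The groups did not overlap for 5 of the 10, *Gcnt1* and *Mgat5* above and *St3gal1*, *St3gal6* and *St6gal1* below, against 37.4% of all tested genes. The median log2 difference of the 10 was -0.03, beside 0.00 over all tested genes. The 3 that lay below, as 18.2% of all tested genes did, encode sialyltransferases, with log2 differences of -1.26 to -0.53, and none was called. The groups of the 4th sialyltransferase gene, *St8sia4*, overlapped. Of 8 further sialyltransferase genes tested, 4 were above 0 and 4 below, with a median of -0.01.

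For anti-Lag3 against isotype, edgeR called 0 of the 10, with 0.0421% of all tested genes called (0.0253% higher and 0.0168% lower); DESeq2 and limma-voom also called 0. Before adjustment, 1 was higher (*Gcnt1*) and 1 lower (*St3gal6*) under 0.05, against 2.99% and 2.97% of all tested genes, 5.96% in either direction. The groups did not overlap for 5 of the 10, against 34.6% of all tested genes: *Gcnt1*, *Fut8* and *B4galt1* lay above, *St3gal1* and *St3gal6* below. The median was 0.01. For anti-PD1 against anti-Lag3, 0 of the 10 were called by edgeR, DESeq2 or limma-voom, with 0.303% of all tested genes called by edgeR (0.244% higher and 0.0589% lower). At an unadjusted p under 0.05, 1 was higher (*Gcnt1*) and 1 lower (*St6gal1*, log2 difference -0.66, edgeR p of 0.0463 before adjustment), against 3.5% and 3.03% of all tested genes, 6.53% in either direction. The groups did not overlap for 7 of the 10, 4 above and 3 below, against 35.9% of all tested genes.

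**Figure D4:**
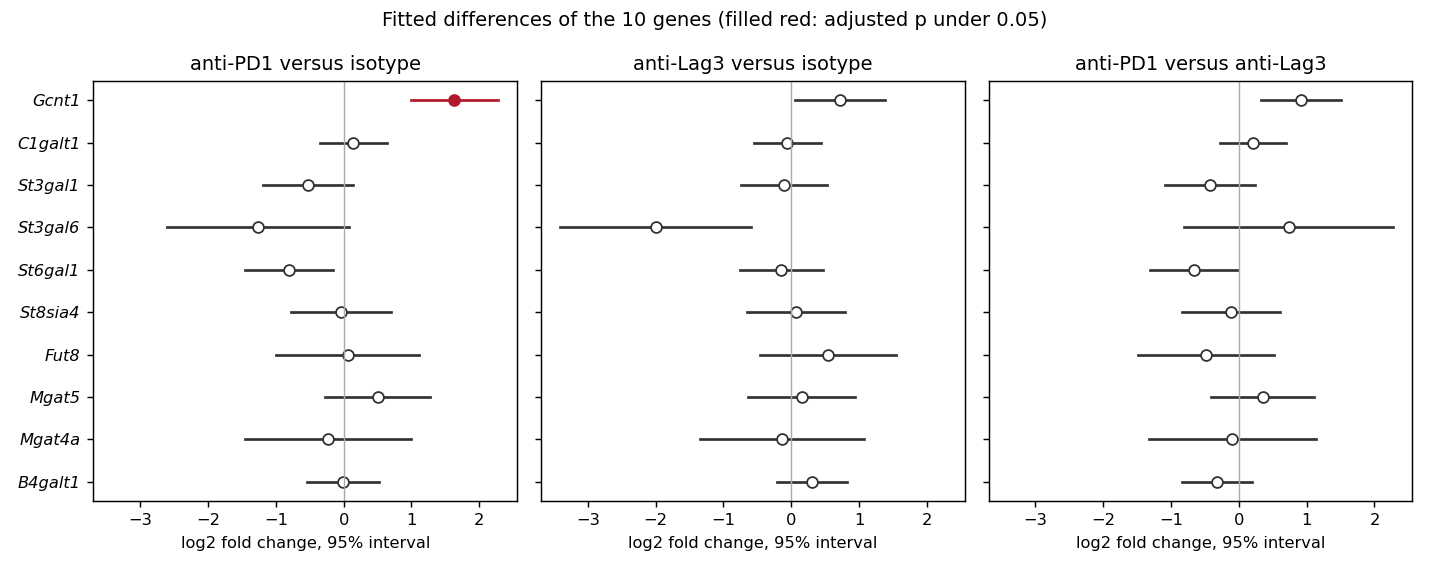
Fitted log2 fold changes (horizontal axis) of the 10 genes in the 3 comparisons, with 95% intervals from the edgeR fit; the filled red point passed an adjusted p of 0.05. *Gcnt1* at 1.63 in anti-PD1 versus isotype is the 1 filled point, and the interval of *St3gal6* is the widest in each panel.

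The rest of the glycan genes gave no call. Of 95 further genes in 9 lists by role, 64 passed the filter on low counts, and edgeR, DESeq2 and limma-voom each called 0 of the 64 in each of the 3 comparisons. In anti-PD1 against isotype, where 0.901% of all tested genes were called, 6 were higher and 5 lower at an unadjusted p under 0.05, or 17.2% of the 64 against 8.12% of all tested genes. The median log2 difference was 0.00, and 32 lay on each side of 0. The groups did not overlap for 17 above and 20 below, or 57.8% of the 64 against 37.4% of all tested genes. In anti-Lag3 against isotype 3 were higher and 2 lower at an unadjusted p under 0.05, or 7.81% against 5.96% of all tested genes, and in anti-PD1 against anti-Lag3 1 was higher and 3 lower, or 6.25% against 6.53%. The rule for naming these genes takes the one with the highest CPM of each list; others named here were picked after their values were seen.

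Among the O-glycan genes, which start the chain that Gcnt1 later branches, 9 of 14 were tested. Of these 8 had a log2 difference below 0 in anti-PD1 against isotype, as did 5861 of all 11877 tested genes. The median of the 9 was -0.31, beside 0.00 over all tested genes. None of the 9 was called, against 0.901% of all tested genes. The groups did not overlap for 4 below and 1 above, against 18.2% and 19.2% of all tested genes. In anti-Lag3 against isotype the median was -0.01. The list's highest gene, *Galnt1*, which adds the first sugar, had means of 92.8 ± 6.03, 88.0 ± 4.23 and 75.1 ± 0.584 CPM (SD, n = 2) in isotype, anti-PD1 and anti-Lag3 cells. The relatives of *Gcnt1* were nearly silent in these libraries: *Gcnt2*, *Gcnt3* and *Gcnt4* had 1 read each over all 6 libraries together.

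Among 8 tested sialyltransferases of 16 listed, the highest was *St6galnac4*, with means of 81.4 ± 3.53, 94.8 ± 19.0 and 76.1 ± 5.70 CPM (SD, n = 2). *St8sia1*, which makes the ganglioside GD3, had 39 and 52 reads in isotype, 14 and 24 in anti-PD1 and 24 and 19 in anti-Lag3 libraries. Both antibody groups lay below the isotype group, with log2 differences of -1.24 (SE 0.40, edgeR p of 0.0033 before and 0.170 after adjustment) and -1.20 (SE 0.39, p of 0.0037 before and 0.641 after), neither called. *St3gal4*, a second enzyme for sialylated lactosamine, had 15 and 19 reads in isotype, 27 and 38 in anti-PD1 and 39 and 17 in anti-Lag3 libraries (log2 difference 0.95 under anti-PD1, adjusted p = 0.566 by edgeR). *St6galnac6* had the largest positive log2 difference of this list under anti-PD1, 1.81 (SE 0.62, adjusted p = 0.234 by edgeR), on 4 and 9 reads in isotype against 11 and 35. In the anti-Lag3 libraries it had 10 and 26 reads, a log2 difference from isotype of 1.31 (SE 0.63), also not called. Of the 8, 4 were above 0 and 4 below under anti-PD1, with a median of -0.01.

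The sugar donor list, enzymes and transporters that supply the building blocks, was fully tested, 19 of 19, with 12 above and 7 below 0 under anti-PD1 and a median of 0.08. *Cmas*, which activates sialic acid, was its highest gene, at means of 93.5 ± 15.0, 121 ± 23.3 and 123 ± 12.5 CPM (SD, n = 2). N-glycan trimming and branching genes (8 of 12 tested) had a median of 0.16, with *Man1a2* highest at 134 ± 4.75, 146 ± 7.60 and 133 ± 17.6 CPM. *Man1a*, a mannosidase that trims N-glycans, had 95 and 140 reads in isotype and 168 and 172 in anti-PD1 libraries (log2 difference 0.57, SE 0.19, adjusted p = 0.219 by edgeR).

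Few genes were tested among fucosyltransferases (4 of 9, median 0.19), galactose and polylactosamine enzymes (3 of 10, median 0.17) and sialidases (2 of 4, median -0.03). *Pofut1*, the fucosyltransferase that acts on Notch, led its list at 24.4 ± 1.89, 23.5 ± 10.7 and 22.3 ± 7.86 CPM, *B4galt5* at 73.4 ± 6.57, 63.6 ± 3.18 and 71.8 ± 9.76 CPM, and the lysosomal sialidase gene *Neu1* at 46.4 ± 4.97, 31.0 ± 9.71 and 40.9 ± 10.1 CPM (SD, n = 2, in the order isotype, anti-PD1, anti-Lag3). *Fut7*, which completes selectin ligands on core 2 branches, had 7 and 7, 5 and 6, and 5 and 8 reads.

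The genes of the proteins that carry these sugars and of the galectins that bind them were not called either. Of all tested genes, 0.901% were called in anti-PD1 against isotype, 0.0421% in anti-Lag3 against isotype and 0.303% in anti-PD1 against anti-Lag3. *Spn*, the gene of CD43, had 554 and 487 reads in isotype, 380 and 407 in anti-PD1 and 482 and 566 in anti-Lag3 libraries. The anti-PD1 libraries lay below the isotype libraries (log2 difference -0.39, SE 0.13, edgeR p of 0.0054 before and 0.231 after adjustment). *Selplg*, the gene of PSGL-1, had 137 and 109 reads in isotype and 96 and 104 in anti-PD1 libraries (log2 difference -0.29, interval -0.72 to 0.15). *Ptprc*, the gene of CD45, was the highest of the 7 carriers at means of 2000 ± 1.71, 1915 ± 51.8 and 2038 ± 24.0 CPM (SD, n = 2). CD43 and PSGL-1 are the carriers of core 2 O-glycans best known in T cells, and neither gene was called in any comparison. Of 4 galectins, 3 were below 0 under anti-PD1, with a median of -0.55; *Lgals9* led at 105 ± 14.7, 74.5 ± 1.65 and 88.5 ± 14.4 CPM.

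**Figure D5:**
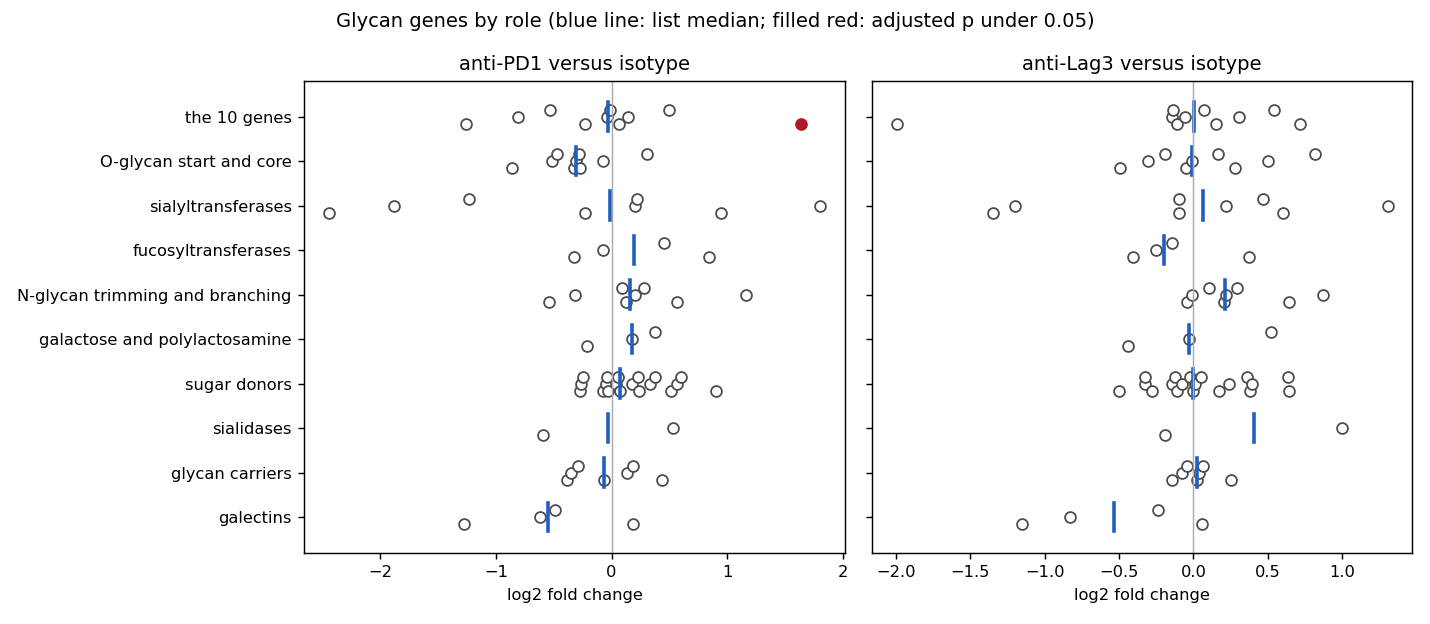
Fitted log2 fold changes (horizontal axis, a scale of its own in each panel) of the tested genes by role, for anti-PD1 and anti-Lag3 against isotype; each circle is a gene, the blue line the list's median, and the filled red circle passed an adjusted p of 0.05. The filled circle is *Gcnt1* at 1.63; the O-glycan list has its median at -0.31 under anti-PD1 and at -0.01 under anti-Lag3.

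The genes whose levels most followed *Gcnt1* over the 6 libraries were no glycan enzymes. Among 7137 tested genes with a mean of at least 10 CPM, Pearson's r with *Gcnt1* (log2 CPM) was highest for *Taf5l* and *Pcmtd1* (0.994 each), *Nfkb2* (0.993), *Camsap1* (0.988) and *Pim1* (0.986). The 6 points fall into 3 groups of 2 and so share the treatment, and r is given as a description of likeness only. *Pim1*, a kinase gene, was called higher under anti-PD1 (177 and 173 CPM in isotype, 265 and 273 in anti-PD1, 220 and 196 in anti-Lag3; log2 fold change 0.62, adjusted p = 0.0021 by edgeR). *Nfkb2*, which encodes an NF-κB subunit, had 45.7 and 46.7, 67.6 and 71.1, and 54.0 and 52.0 CPM in the same order, and was not called. *Taf5l*, *Pcmtd1* and *Camsap1* were not called under anti-PD1 either (adjusted p = 0.449, 0.660 and 0.058 by edgeR). Among the others of the 10 genes at this level, r with *Gcnt1* was 0.63 for *Mgat5*, 0.43 for *C1galt1*, -0.10 for *B4galt1*, -0.23 for *St8sia4*, -0.74 for *St6gal1* and -0.87 for *St3gal1*.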

How the data were processed

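Gene counts were deposited by the authors: reads of Lexogen QuantSeq forward 3′ libraries were trimmed with Bbduk, aligned to GRCm38 (mm10) with STAR 2.5.2a and counted with HTSeq; the annotation release and strand setting were not given in the sources used here. The authors also deposited rlog values (a shrunken log2 scale from DESeq2), used here only as an alternative. A further replicate batch, left out by the study, was not analysed here.

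Counts were fitted with edgeR 4.0.16 (R 4.3.3; glmQLFit, TMM) for the 11877 genes with at least 10 reads over 6 libraries, and tested on simulated data. Alternatives used DESeq2 1.42.0 and limma 3.58.1. Symbols were matched for 47224 of 47643 genes. The genes and lists were chosen with earlier results of these data known. Named by rule were the 10 genes, each list's highest CPM gene and any called, the 5 genes of at least 10 CPM most like *Gcnt1* by Pearson's r, and summed cell markers. Other genes named were picked after their values were seen. Replicate libraries differed by more than sampling noise, with chi-square per degree of freedom of 2.65 to 3.29, so none was counted as a duplicate. Counting intervals and the 3-read limit cover counting error only.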

Additional observations from a re-analysis of the deposited data

How the results depend on the processing

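*Gcnt1* in anti-PD1 against isotype kept its direction under all 17 alternatives (log2 fold change 1.49 to 1.76, adjusted p 2.3e-04 to 0.136 by edgeR, DESeq2 or limma-voom) and lost its call without the second anti-PD1 library, so that 0 to 1 of the 10 genes were called with 1 library left out. Its difference from the other 9 genes was 1.53 to 2.02 with 1 library left out and 0.33 on the deposited rlog scale, which shrinks low counts. All genes called in that comparison came to 166 at an adjusted p of 0.1 and to 46 to 161 with 1 library left out. In anti-Lag3 against isotype, 5 genes were called; DESeq2 called 1, the 4 libraries alone, edgeR's newer method and filterByExpr 0 each, leaving out *Gm42418* and mitochondrial rRNA 3, a minimum of 1 read 20, and leaving out 1 library 0 to 16. In anti-PD1 against anti-Lag3, 36 genes became 16 with DESeq2, 58 with a minimum of 1 read and 3 to 49 with 1 library left out. The sources do not tie a replicate number of these libraries to a batch, although the samples left out by the study had been handled as one, and deviations of same-numbered libraries correlated little (r = 0.02, 0.02 and -0.01), so pairing is not shown. With a replicate block, 144, 6 and 46 genes were called in the 3 comparisons against 107, 5 and 36, *Gcnt1* under anti-PD1 was at 1.63 (adjusted p = 6.1e-04 by edgeR), and no call among the 10 genes changed. Directions that reversed were all of uncalled genes, and the cause was not tested. Under anti-PD1 *Fut8* was -0.16 with limma-voom. With 1 library left out, log2 differences from isotype under anti-PD1 ran from -0.47 to 0.31 for *St8sia4*, -0.90 to 0.67 for *Fut8*, -0.57 to 0.19 for *Mgat4a* and -0.074 to 0.040 for *B4galt1*; under anti-Lag3 from -0.13 to 0.013 for *C1galt1*, -0.46 to 0.21 for *St6gal1*, -0.31 to 0.36 for *St8sia4*, -0.26 to 0.81 for *Mgat5* and -0.67 to 0.29 for *Mgat4a*; and for anti-PD1 against anti-Lag3 from -0.54 to 0.27 for *St8sia4*, -1.44 to 0.13 for *Fut8* and -0.51 to 0.44 for *Mgat4a*. A library left out leaves 1 in its group, which is then assumed to vary like the other groups. At as few as 5 reads for *St3gal6* in a library, counting error is wide.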
